A study of Mus musculus with 43 samples.

Results

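Asymmetric and symmetric dimethylation of arginine 3 on histone H4 (H4R3me2a and H4R3me2s) were compared in wild-type (WT) mouse testis at postnatal day 14 (P14) by CUT&Tag, in which an antibody directs the Tn5 transposase to a histone mark and the released fragments are sequenced. The members are the 3 WT peak lists of H4R3me2a and the 3 WT peak lists of H4R3me2s at P14, chosen by antibody, age and genotype from the sample labels. They are 6 of the 43 samples of the series and 6 of its 33 CUT&Tag peak lists. All 6 are labelled WT and C57BL/6J, and the labels name no treatment other than the antibody. Whether these mice carried a Cre or floxed allele or received tamoxifen is not stated for them. According to the methods of the study, testis tubules were digested with collagenase and trypsin, and the cell suspension was passed through a strainer to take out Sertoli cells, so the samples are germ cell preparations and not a sorted cell type. The titles call the P14 cells spermatogonia, whereas the cell type label calls them spermatocytes, and no RNA of this age was analysed here. The labels number the replicates of each mark 1 to 3 but do not say whether they came from separate mice. The methods speak of biological triplicates for the study in general, without saying how the CUT&Tag replicates were made, so the p-values measure only the spread between these samples, part of which may be technical. The peak names stored in the H4R3me2a lists carry a P14 stem and those in the H4R3me2s lists an SD17 stem. The sources do not say what SD17 stands for, and if it named an age, age and mark could not be told apart.

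The arginine at position 3 of the H4 tail can carry 1 methyl group or a pair of them. Type I methyltransferases, PRMT1 foremost, put both methyl groups on the same nitrogen, and type II enzymes, PRMT5 foremost, put them on different nitrogens. The same residue on the same H4 tail can therefore not hold both forms at the same time, although a peak pools many nucleosomes and cells and can. The asymmetric form is known as a mark of active promoters, and the symmetric form has mainly been linked to repression.

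The sites that carry the comparison are shown by reference sequence (GRCm38/mm10, plus strand, CpG dinucleotides in capitals) reaching 100 bp to either side of the summit of the best peak. The first is a site found in 6 of 6 lists, in an intron of Aida, 1757 bp downstream of a start of this gene, and within reach of the promoter of the divergent gene Brox as well (chr1:183299227-183299427). The second lies in an intron of Gosr1, a Golgi SNARE gene, 191 bp downstream of a start (chr11:76763276-76763476), and was found in 3 of 3 H4R3me2a lists and in 0 of 3 H4R3me2s lists. The last is the reverse case, in an intron of Plekhf1, 278 bp downstream of a start (chr7:38227638-38227838). There the summits of H4R3me2s replicates 2 and 3 lie inside the window and that of replicate 1 just beyond its end. Windows that overlap an annotated exon were passed over, and the bases come from the RefSeq copy of the genome.
Aida and Brox, 6 of 6 lists: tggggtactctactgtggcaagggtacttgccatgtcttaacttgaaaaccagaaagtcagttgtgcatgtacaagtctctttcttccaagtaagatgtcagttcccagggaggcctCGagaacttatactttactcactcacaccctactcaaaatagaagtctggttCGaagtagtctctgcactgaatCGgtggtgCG
Gosr1, H4R3me2a lists only: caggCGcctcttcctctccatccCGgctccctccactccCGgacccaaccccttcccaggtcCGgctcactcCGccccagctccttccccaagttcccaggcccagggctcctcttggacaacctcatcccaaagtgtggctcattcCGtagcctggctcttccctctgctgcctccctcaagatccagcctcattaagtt
Plekhf1, H4R3me2s lists only: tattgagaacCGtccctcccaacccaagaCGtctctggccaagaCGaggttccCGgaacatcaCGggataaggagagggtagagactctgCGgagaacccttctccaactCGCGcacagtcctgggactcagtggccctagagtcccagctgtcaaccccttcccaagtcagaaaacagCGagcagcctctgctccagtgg
These windows hold 4, 6 and 9 CpG. Windows of like rank at Asmt, Kif2b and Gm8094 were masked as repeats over 100%, 100% and 94.5% of their bases and are not shown.

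The H4R3me2a lists held 39597, 44836 and 40386 peaks and the H4R3me2s lists 33814, 18423 and 22256 (mean 41606 ± 2825 against 24831 ± 8012, SD, n = 3 each). All H4R3me2a lists were longer than all H4R3me2s lists. The H4R3me2a peaks were also wider, with median widths of 274, 281 and 280 bp against 245, 241 and 240 bp. In both comparisons the groups did not overlap, with an exact two-sided permutation p of 0.1. With 3 against 3 lists 0.1 is the smallest p this test can give, so no difference over the 6 lists can pass 0.05.

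Depth differed in the same way. The genome-wide background that MACS2 used, recovered from the fold enrichment and p of each peak, was 1.97, 2.01 and 1.90 fragments per window in the H4R3me2a lists and 1.004, 0.755 and 0.826 in the H4R3me2s lists, a ratio of 2.27 between the means. The weakest peaks at that background rested on 6 fragments in the H4R3me2a lists and on 4 in the H4R3me2s lists, and the median such peak on 8 against 5 or 6. Peaks with a q of at most 0.01 made up 17.2, 21.6 and 21.2% of the H4R3me2a lists and 12.6, 11.4 and 12.3% of the H4R3me2s lists. Depth, the stem of the peak names and the mark all divide the 6 lists in the same way and cannot be told apart. Comparisons are therefore also given for the best 18264 peaks of every list, the number on the main chromosomes in the shortest one. This cut is not equally strict for both marks. The smallest −log10 of p kept was 4.37, 4.42 and 4.52 for H4R3me2a and 3.98, 2.32 and 3.32 for H4R3me2s. H4R3me2s replicate 2 was kept whole. The part of this in the comparisons at equal length was not tested.

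Both marks lay preferentially at promoters, taken as 3000 bp on either side of any transcription start site (TSS). Promoters held 36.5, 37.7 and 39.1% of H4R3me2a summits and 37.5, 46.2 and 42.9% of H4R3me2s summits, whereas such windows cover 15.5% of the genome. The groups overlapped, with means of 37.8% ± 1.28 and 42.2% ± 4.38 (SD, n = 3 each, exact permutation p = 0.3, 0.42 after Benjamini-Hochberg adjustment over the 7 places). The difference of -4.44 points became -6.78 without H4R3me2s replicate 1 and -2.43 without replicate 2. With peaks of a q of at most 0.01 it was -6.74 points (exact permutation p = 0.1). At equal list length the order of the means turned, with promoter shares of 44.1, 49.5 and 48.5% for H4R3me2a against 43.7, 46.2 and 44.4% for H4R3me2s, and the groups still overlapped (exact permutation p = 0.3).

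Introns held 32.5, 31.7 and 30.6% of H4R3me2a summits and 28.3, 25.8 and 27.2% of H4R3me2s summits, close to or below the 33.3% of the genome they cover. Here the groups did not overlap in the full lists (difference 4.52 points, exact permutation p = 0.1, adjusted 0.175). At equal length the difference shrank to 0.482 points and the groups overlapped (exact permutation p = 0.8). Exons apart from promoters and untranslated ends held 1.84, 1.98 and 1.96% against 1.64, 1.46 and 1.49%, and this small excess of H4R3me2a, 0.397 points, kept the groups apart at equal length as well (1.62, 1.67 and 1.57% against 1.49, 1.46 and 1.34%, exact permutation p = 0.1) but not among peaks with a fold of at least 4, where the difference was -0.0485 points. Intergenic sequence covers 48.9% of the genome and held 28.0, 27.4 and 27.2% of H4R3me2a summits against 31.5, 25.6 and 27.5% of H4R3me2s summits. The intergenic groups overlapped (difference -0.683 points, exact permutation p = 0.8). They also overlapped at equal length, where the difference was -3.27 points (exact permutation p = 0.2).

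**Figure D1:**
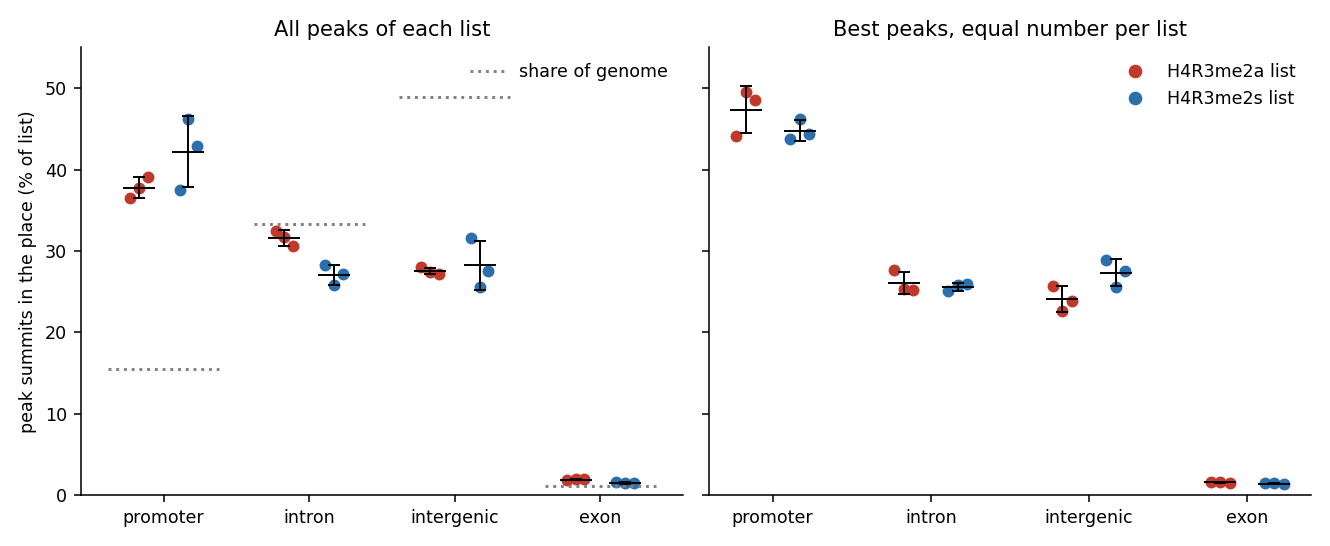
Percentage of peak summits per list in promoters, introns, intergenic sequence and exons, for all peaks (left) and for the best 18264 peaks of each list (right). Points are lists, black bars the mean and SD of 3 lists, dotted lines the share of the genome; the promoter means change order between the panels and the intron difference closes.

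Around the TSS of protein-coding genes the summits of both marks were densest just downstream of the start. Within 1000 bp of a TSS of any gene lay 26.2, 27.9 and 29.1% of H4R3me2a summits and 28.4, 36.0 and 33.4% of H4R3me2s summits (exact permutation p = 0.2). At equal length these shares were 35.2, 40.9 and 40.002% against 36.0, 36.0 and 35.5%. With peaks of a q of at most 0.01 the difference, H4R3me2a minus H4R3me2s, was -8.53 points (exact permutation p = 0.1). Most summits within 1000 bp of a protein-coding TSS lay downstream of it. Of the summits within 1000 bp of a protein-coding TSS, 37.2, 36.5 and 36.7% of H4R3me2a and 38.1, 39.2 and 39.0% of H4R3me2s lay upstream, and the median position was 68, 72 and 71 bp downstream for H4R3me2a against 66, 58 and 60 bp for H4R3me2s. These groups did not overlap (exact permutation p = 0.1 for both), by a difference of 9 bp between positions.

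**Figure D2:**
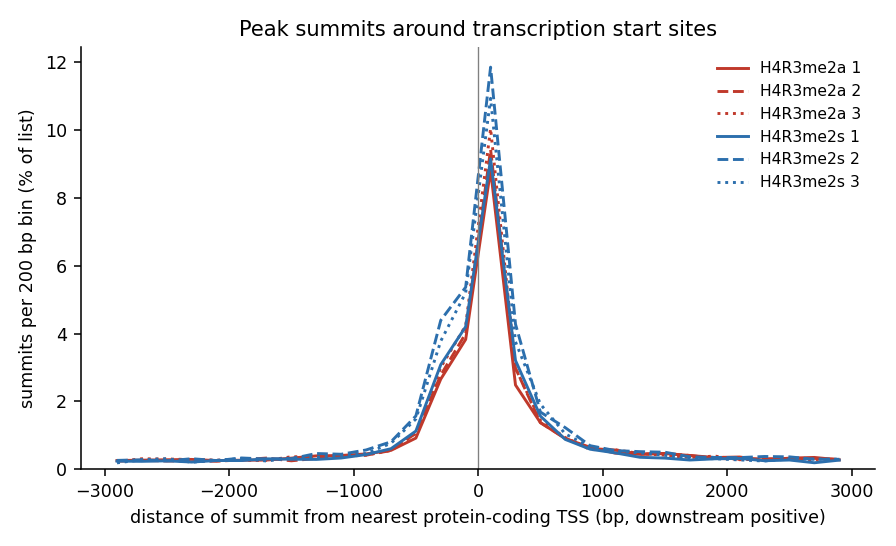
Peak summits of each list in 200 bp bins around the nearest protein-coding TSS, as a percentage of the list (x axis in bp, downstream positive). All 6 lists peak in the bin just downstream of the start, and the shortest list, H4R3me2s replicate 2, peaks highest.

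Few peaks of either mark lay on the sex chromosomes. The X chromosome makes up 6.18% of the genome and held 0.596, 0.727 and 0.716% of H4R3me2a summits and 1.04, 0.624 and 0.766% of H4R3me2s summits. The groups overlapped (exact permutation p = 0.4). With peaks of a q of at most 0.01 the difference in X share, H4R3me2a minus H4R3me2s, was -0.383 points (exact permutation p = 0.1). At P7 the shares were similarly low, with 0.667, 0.599 and 0.622% for H4R3me2a and 1.35 and 1.28% for H4R3me2s. By comparison, H3K4me3, the mark of active promoters, had 3.42 and 3.41% of its P14 peaks on X, and H3K27ac, the mark of active promoters and enhancers, 1.95 and 2.11%, whereas H4R3me1, the monomethylated form, had 0.467 and 0.448%. These differences between marks were not tested. Counted by genes, 105 of 948 protein-coding promoters on X carried H4R3me2a in 2 or more lists (11.1%) and 42 carried H4R3me2s (4.43%), against 51.1 and 35.8% of 20807 autosomal promoters. On the same X promoters H3K4me3 was present in both of its lists at 53.2%, against 64.0% on autosomes. The Y chromosome held 0.106, 0.0962 and 0.0969% of H4R3me2a summits and 0.128, 0.153 and 0.168% of H4R3me2s summits, higher in all 3 H4R3me2s lists but resting on 28 to 43 peaks per list.

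In base composition both marks lay in GC-rich sequence. Within 100 bp of H4R3me2a summits the sequence had a mean GC content of 52.7, 53.1 and 53.6%, near H4R3me2s summits 52.7, 54.1 and 53.6%, and the main chromosomes 41.7%. At equal length the GC groups did not overlap, with 54.3, 55.8 and 55.5% for H4R3me2a against 54.2, 54.1 and 53.9% for H4R3me2s, and the means changed order (exact permutation p = 0.1). The marks also differed in repeats. Bases masked as repeats made up 20.3, 19.6 and 19.4% of the windows of H4R3me2a and 26.3, 21.7 and 24.7% of those of H4R3me2s, where the genome has 36.4%. The groups did not overlap, and they stayed apart at equal length (20.3, 18.02 and 19.1% against 25.7, 21.7 and 25.3%, a difference of 5.09 points, exact permutation p = 0.1 for both).

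The H4R3me2a lists shared more peaks with each other than with the H4R3me2s lists, whereas the order for the H4R3me2s lists depended on the measure. At equal length 32.1 to 35.7% of the peaks of an H4R3me2a list overlapped another H4R3me2a list by at least 1 bp, and 22.05 to 24.0% of those of an H4R3me2s list overlapped another H4R3me2s list. Between the marks the 18 directed pairs gave 23.4 to 28.3%. Each H4R3me2s list thus shared more peaks with each of the 3 H4R3me2a lists than with either of the other H4R3me2s lists. By shared bp over joint bp (Jaccard index) in the full lists this held only for H4R3me2s replicate 1, with 0.107, 0.113 and 0.114 against 0.0975 and 0.103. For replicate 2 the values were 0.0923, 0.0933 and 0.0968 with the H4R3me2a lists and 0.0975 and 0.106 with the other H4R3me2s lists. The mean within marks exceeded the mean between marks by 2.01 points in the full lists, and with 1 list left out at a time this value ran from -0.135 (without H4R3me2a replicate 1) to 4.03 (without H4R3me2s replicate 2). No test was made on pairs, since pairs share lists. For scale, the 2 P14 lists of H3K4me3 shared 89.6% of equally many peaks, those of H3K27ac 52.4%, and those of H4R3me1 32.1%.

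**Figure D3:**
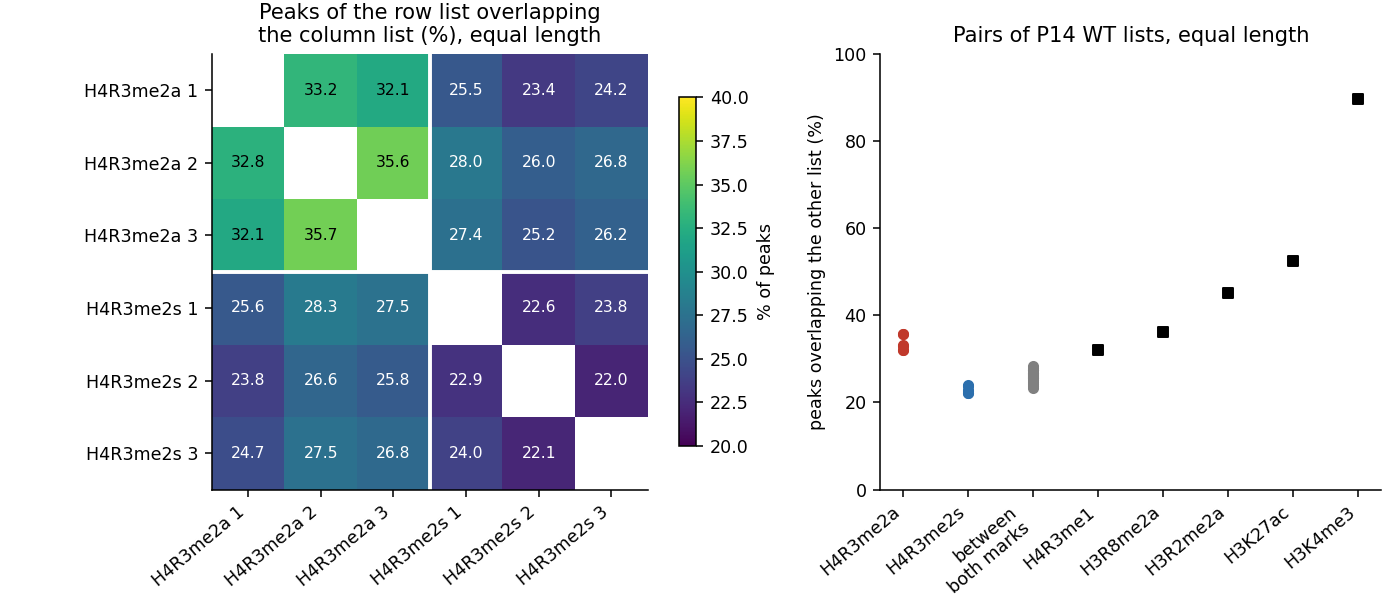
Left, percentage of the best 18264 peaks of the row list that overlap the column list. Right, the same values for pairs of lists within H4R3me2a (32.1 to 35.7%), within H4R3me2s (22.05 to 24.0%) and between them (23.4 to 28.3%), with the pair of lists of 5 other P14 marks as squares.

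Agreement depended on the strength of a peak. Among the 1000 best peaks of each list, 92.4, 92.6 and 94.3% of H4R3me2a peaks were found on average in the other H4R3me2a lists and 82.6, 84.97 and 85.8% in the H4R3me2s lists. Of the 1000 best H4R3me2s peaks 84.8, 83.3 and 83.5% were found in the other H4R3me2s lists and 88.8, 87.0 and 85.1% in the H4R3me2a lists. The strongest sites of both marks were therefore largely the same places. At ranks 10001 to 18264 the shares fell to between 17.8 and 18.2% within H4R3me2a, 9.65 and 12.1% within H4R3me2s, and 12.2 and 14.8% between them. Over all ranks, 50.4 to 53.0% of the peaks of an H4R3me2a list and 46.9 to 56.8% of the peaks of an H4R3me2s list overlapped none of the other 5 lists.

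**Figure D4:**
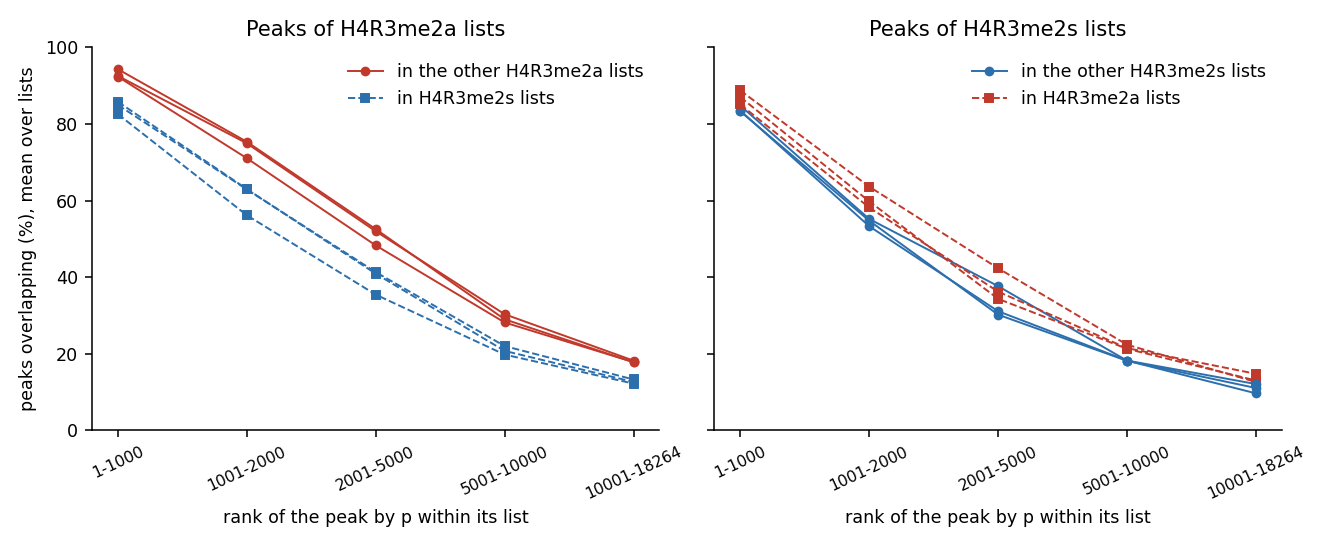
Percentage of peaks of each H4R3me2a list (left) and each H4R3me2s list (right) that overlap the best 18264 peaks of the other lists of the same mark (circles) or of the opposite mark (squares), by rank of p within the list; 1 line per list. H4R3me2s peaks are found in H4R3me2a lists at least as often as in the other H4R3me2s lists at every rank.

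Merging all 6 lists gave 133717 regions. Of these 6410 held peaks of both marks in at least 2 lists each, 9246 were separate to H4R3me2a (at least 2 lists of it, 0 of H4R3me2s) and 1342 were separate to H4R3me2s. Under the strictest rule 2552 regions were in 6 of 6 lists, 1579 were in 3 of 3 H4R3me2a and 0 of 3 H4R3me2s lists (1.18% of regions), and 99 were the reverse (0.074% of regions). Regions known from 1 list of H4R3me2a alone numbered 64585 and from 1 list of H4R3me2s alone 38625. At equal list length 4535 regions held both marks, 2893 were separate to H4R3me2a and 1378 to H4R3me2s, so the excess of separate H4R3me2a regions was smaller. Without H4R3me2a replicate 1, 2 or 3 the regions separate to H4R3me2a numbered 4407, 3824 and 4141, and without H4R3me2s replicate 1, 2 or 3 those separate to H4R3me2s numbered 346, 669 and 521.

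Shared and separate regions lay in different places. Regions with both marks had their best summit in a promoter in 72.6% of cases, regions separate to H4R3me2a in 34.9% and regions separate to H4R3me2s in 39.9%, against 30.2% of all regions. Shared regions were wide, with a median of 803 bp against 453 and 386 bp, and CpG-rich, with a median ratio of observed to expected CpG of 0.690 against 0.226 and 0.263. A shared region merges at least 2 lists of each mark, whereas a separate one can rest on 2 lists, so its width is partly built in. Median widths were 246 and 200 bp for regions of 1 H4R3me2a or H4R3me2s list. They were 584 and 495 bp for strictly separate regions and 930 bp in 6 of 6 lists. The part of list number in the contrasts between classes was not tested. The GC box GGGCGG, searched on both strands within 100 bp of the best summit, occurred in 29.8% of shared regions, 9.59% of regions separate to H4R3me2a, 11.5% of regions separate to H4R3me2s and 7.34% of all regions. The CCAAT box occurred in 12.7, 17.4, 23.7 and 21.04% of these classes, least often in shared regions. Regions separate to H4R3me2s had the most repeats, 31.6% of bases in these windows, against 19.3% for those separate to H4R3me2a and 18.3% for shared ones. X held 20 of the regions separate to H4R3me2s (1.49%) and 63 of those separate to H4R3me2a (0.681%), against 0.745% of all regions.

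The highest ranked region in 6 of 6 lists was chr9:35305129-35305728 at Gm33838, with 21.7, 22.1 and 22.01 fold for H4R3me2a against 24.6, 25.5 and 25.8 for H4R3me2s. The first of the strict H4R3me2a regions was in an intron of Efl1, a ribosome assembly GTPase gene (chr7:82771089-82771947; 5.56, 7.36 and 7.85 fold), and the second in Mid1 on X (chrX:169989183-169989894; 6.81, 6.25 and 5.63 fold). The first of the strict H4R3me2s regions was on Y, nearest to Mid1-ps1 (chrY:90737782-90738718; 4.16, 3.92 and 4.73 fold). Mid1 and its pseudogene lie where X and Y carry near-identical copies, so reads may be placed on either, and both regions are uncertain.

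The other P14 marks were concentrated on shared regions. Among shared regions in promoters, 92.8% overlapped a peak in both lists of H3K4me3 and 85.8% in both lists of H3K27ac. Separate regions in promoters had less of both, with 44.7 and 28.0% for H4R3me2a and 58.9 and 34.4% for H4R3me2s, against 36.0 and 24.8% over all promoter regions. For 2 of the 3 other arginine marks the class separate to H4R3me2a had the higher share. H3R2me2a, an asymmetric mark on the H3 tail, lay on 39.9% of promoter regions separate to H4R3me2a and on 27.3% of those separate to H4R3me2s, and H4R3me1 on 13.1 and 7.66%, where all promoter regions had 26.7 and 12.8%. Away from promoters these shares were 19.9 and 7.81% for H3R2me2a and 8.52 and 2.35% for H4R3me1. H3R8me2a, the third, lay on 12.9% of promoter regions of either separate class, and elsewhere on 6.56% of those separate to H4R3me2a and 8.80% of those separate to H4R3me2s. All regions away from promoters had 7.26% for H3R2me2a, 3.27% for H3R8me2a and 3.42% for H4R3me1, and all promoter regions 14.6% for H3R8me2a. Shared regions away from promoters carried H3R2me2a in 76.2% and H4R3me1 in 61.2% of cases, although H3K4me3 was there in only 31.0%.

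**Figure D5:**
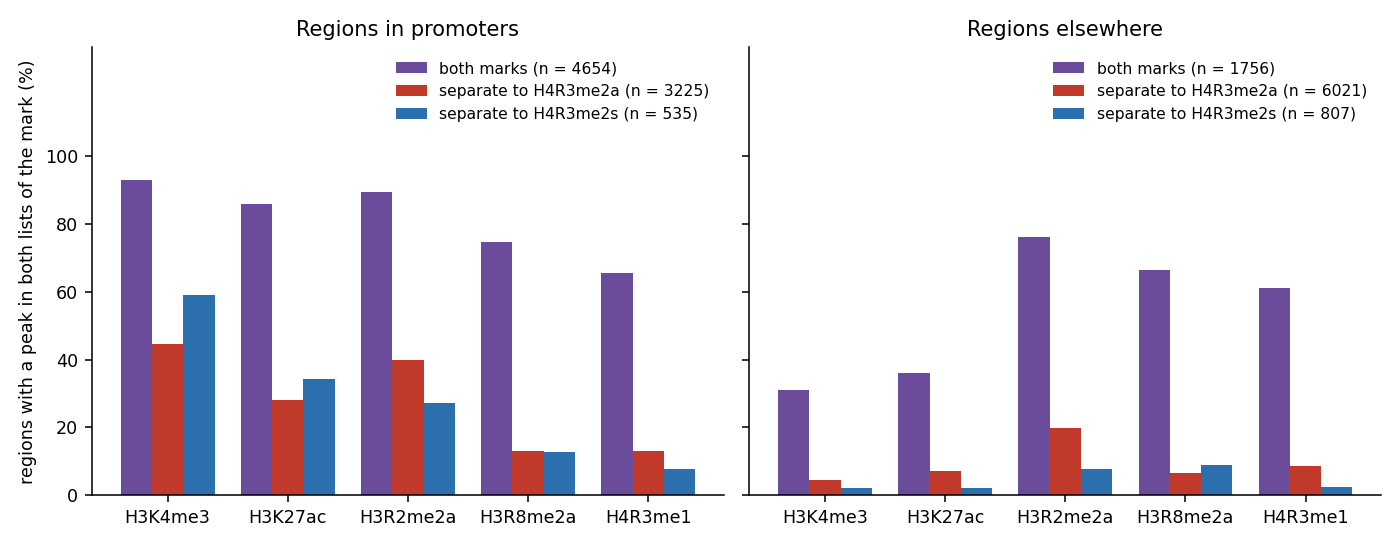
Percentage of regions with both marks, separate to H4R3me2a and separate to H4R3me2s that overlap a peak in both P14 lists of H3K4me3, H3K27ac, H3R2me2a, H3R8me2a and H4R3me1, for regions in promoters (left) and elsewhere (right). Shared regions have the highest bar for each of the 5 marks.

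The same comparison over whole lists can be tested. At equal length 39.4, 44.3 and 43.2% of H4R3me2a peaks overlapped H3R2me2a in both lists of that mark, and 33.7, 32.1 and 32.2% of H4R3me2s peaks. The difference was 9.65 points. For H4R3me1 the shares were 24.9, 27.6 and 26.3% against 21.4, 20.1 and 20.6%, for H3K27ac 29.9, 34.3 and 33.6% against 28.8, 27.3 and 27.4%, and for H3R8me2a 26.9, 29.5 and 28.9% against 25.4, 23.5 and 24.1%. In each of these 4 marks all H4R3me2a lists were above all H4R3me2s lists (exact permutation p = 0.1). For H3K4me3 the groups overlapped, with 33.4, 40.2 and 39.2% against 34.0, 33.0 and 33.2% (exact permutation p = 0.2). In the full lists, of unequal length, the mean was higher for H4R3me2s with each of these 5 marks, and for H3R8me2a the groups were then apart in that direction (15.4, 15.1 and 16.2% against 16.6, 23.5 and 21.3%, exact permutation p = 0.1). With peaks of a q of at most 0.01 the difference was -15.5 points for H3K27ac and -16.3 points for H3K4me3 (exact permutation p = 0.1 for both). The direction of these overlaps thus depended on which peaks were kept. The 10 lists of the other marks had backgrounds of 1.45 to 3.10 fragments per window, closer to those of H4R3me2a, and the part of depth in these shares was not tested.

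A promoter summit within 3000 bp of a TSS was present at 44.8, 51.0 and 49.3% of the 21938 protein-coding genes in the H4R3me2a lists and at 41.9, 31.5 and 34.2% in the H4R3me2s lists. In at least 2 lists of each mark, 6477 genes carried both (29.5%), 1687 carried H4R3me2a with no H4R3me2s list (7.69%) and 289 carried H4R3me2s with no H4R3me2a list (1.32%). In the strict classes 2829 genes had a peak in 6 of 6 lists, 526 in 3 of 3 H4R3me2a and 0 of 3 H4R3me2s lists (2.4%), and 43 in the reverse (0.196%). A further 5915 had a peak in none of the 6 lists. Over all 55413 annotated genes the 3 classes numbered 8256, 3058 and 553. At equal list length they were 5760, 1336 and 994, of which 5760, 922 and 344 were genes of the same class in the full lists. With peaks of a q of at most 0.01 only 264 of 2146 genes separate to H4R3me2a and 5 of 79 separate to H4R3me2s were of the same class in the full lists, and with a fold of at least 4 only 108 of 740 and 19 of 471. Which genes count as separate thus depended on the peak threshold. A CpG-rich promoter was found for 87.4% of genes with both marks, 48.9% of those separate to H4R3me2a, 60.2% of those separate to H4R3me2s and 10.1% of those with neither, against 51.2% of all.

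Among the protein-coding genes named by rank, the strongest shared promoter sites fell into 2 kinds. Gm10800, Gm21738, Gm10722, Gm11168 and Gm10715 are predicted genes with a mean of 0 TPM in P7 testis, and at Gm10800 the fold enrichment was 8.25, 8.41 and 8.44 for H4R3me2a against 8.48, 8.70 and 8.59 for H4R3me2s. Their stretches on chromosomes 2, 9 and 14 are rich in satellite repeats, so that reads from other copies may be placed there. These promoters, like those of Zc3h7a, Aida and Brox, also had peaks in both lists of each of the 5 other marks. The other kind were sites of single genes. At Zc3h7a (chr16:11136592-11176393), a zinc finger gene, fold enrichment was 13.9, 11.9 and 14.3 for H4R3me2a and 18.02, 18.7 and 17.9 for H4R3me2s. At the site of Aida and Brox, printed above, it was 13.1, 12.5 and 10.8 against 15.2, 17.1 and 18.5. The higher folds of H4R3me2s at these sites stand beside its lower background, so they do not compare amounts of the 2 marks.

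Of promoters strictly separate to H4R3me2a, Gosr1 had 3.71, 5.98 and 6.95 fold in the 3 H4R3me2a lists and no peak in the H4R3me2s lists. Phtf1 had 4.38, 5.98 and 6.22, Dnhd1, a dynein heavy chain domain gene, 5.33, 5.32 and 5.86, and Ndufv1, which encodes a core subunit of respiratory complex I, 3.61, 4.55 and 4.50. Gosr1 and Phtf1 each had peaks in both lists of the 5 other marks. At P7, however, Gosr1 had a peak in 0 of 3 H4R3me2a and 2 of 2 H4R3me2s lists, the reverse of P14, and Phtf1 in 3 of 3 and 1 of 2. The remaining genes of the highest rank were Speer4c, Speer4e, 4930444P10Rik and Kif2b, a kinesin gene. The Speer4 genes belong to a family of near-identical copies and the Kif2b window is masked as repeat, so their peaks are uncertain.

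The promoters strictly separate to H4R3me2s had no peak in the H4R3me2a lists. At Plekhf1 the fold enrichment was 4.20, 3.28 and 4.80, at Cops7a, a subunit gene of the COP9 signalosome, 3.82, 4.17 and 4.37, at Gadd45g, a stress and growth arrest gene, 3.92, 3.57 and 3.91, and at Bhlhe41, a circadian transcriptional repressor gene, 4.07, 4.33 and 3.33. In Ndrg1, with 4.61, 3.03 and 4.35, the summits of replicates 1 and 3 lay at the same start but that of replicate 2 far inside the gene, at another annotated start. At Bhlhe41 the summit of replicate 1 lay upstream of the gene and those of replicates 2 and 3 inside it, more than 3000 bp away. A gene can therefore count as marked in 3 of 3 lists without a site that recurs 3 times. Entpd4, 1700008O03Rik and Gm8094 completed the 8 genes of highest rank, and the Gm8094 window is masked as repeat.

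The genes that write and read arginine methylation carried both marks themselves. Of the list of 20 arginine methyltransferases and partners, 19 had H4R3me2a and 17 had H4R3me2s in at least 2 lists, 17 had both, and none was separate to either mark. Over all protein-coding genes these shares were 49.0% for H4R3me2a, 34.2% for H4R3me2s and 29.5% for both, but all 20 promoters of the list were CpG-rich and in both lists of H3K4me3. At Prmt1 (chr7), which encodes the main H4R3me2a writer, fold enrichment was 3.74, 4.15 and 2.93 in the H4R3me2a lists, and 2.89 and 3.72 in H4R3me2s replicates 1 and 3 with no peak in replicate 2. At Prmt5 (chr14), which encodes the main H4R3me2s writer, H4R3me2a replicates 2 and 3 gave 3.19 and 3.39 and H4R3me2s replicates 1 and 2 gave 3.31 and 4.04. Wdr77, the partner of PRMT5, had a peak in 6 of 6 lists (3.85, 5.24 and 4.86 against 5.20, 4.55 and 4.82). Carm1, another type I enzyme, had 4.20, 7.93 and 6.62 against 5.18, 6.03 and 5.24. Btg2, an antiproliferative gene that binds PRMT1, had 1 peak, in H4R3me2s replicate 3.

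Genes of spermatogonial stem cells and progenitors carried H4R3me2a more often than H4R3me2s, as protein-coding genes did in general. Of 28 such genes 16 had H4R3me2a (57.1%, against 49.0% of all), 7 had H4R3me2s (1 in 4, against 34.2%) and 5 had both (17.9%, against 29.5%), whereas 6 were separate to H4R3me2a (21.4%, against 7.69% of all) and 1 to H4R3me2s (3.57%, against 1.32%). These differences in share were not tested. Among those separate to H4R3me2a were Bcl6b, a self-renewal factor (3.32, 3.65 and 2.46 fold), Stra8, which starts meiosis (2.69, 3.26 and 3.47), and Lin28a, an RNA-binding protein of undifferentiated cells (peaks in replicates 2 and 3, 4.29 and 3.19). Pou3f1 had H4R3me2a in replicates 1 and 3 and H4R3me2s in none. Etv5, a target of GDNF signalling, had both marks in 6 of 6 lists (4.10, 4.88 and 2.96 against 3.54, 4.82 and 4.81), as had Kit, the receptor of differentiating spermatogonia. At Kit, however, the best summits lay at different annotated starts, and not at 1 site in 3 of 3 lists of either mark. Id4 had both marks in 2 of 3 lists each. Utf1 was the gene separate to H4R3me2s (replicates 2 and 3, 3.00 and 3.65). Zbtb16 and Pou5f1 had a peak in 1 list of H4R3me2a each, and Lhx1 had 1 in replicate 1 of each mark (2.62 against 3.33).

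Of 39 genes of meiotic prophase 26 had H4R3me2a, 21 H4R3me2s and 20 both, and 37 had H3K4me3 in both lists. These are 66.7, 53.8, 51.3 and 94.9% of the list, against 49.0, 34.2, 29.5 and 63.1% of all protein-coding genes, differences that were not tested. Prdm9, which marks recombination sites, was marked in 5 of 6 lists (5.05, 5.79 and 5.88 against 3.91 and 4.396). Hfm1, a meiotic helicase gene, was separate to H4R3me2a (2.70, 3.32 and 3.80), and Msh5 to H4R3me2s, with peaks in 2 lists. In the piRNA pathway 12 of 20 genes had H4R3me2a (60%, against 49.0% of all protein-coding genes) and 5 had H4R3me2s (25%, against 34.2%), all 5 of them with both. With so few genes these shares are close to those of all genes, and they were not tested. Of 25 spermatid genes, most of which are used only after meiosis, 7 had H4R3me2a, 5 had H4R3me2s and 12 had neither mark in any list (48.0%, against 26.96% of all protein-coding genes).

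Genes used in every cell carried both marks to unequal extents. Of 24 splicing factor genes 22 had H4R3me2a, 23 H4R3me2s and 21 both, with Hnrnpa1 among the highest (4.91, 6.87 and 5.66 against 8.33, 5.05 and 5.83). Srsf3 was the one separate to H4R3me2a (5.09, 3.57 and 3.09). Of 79 genes of cytosolic ribosomal proteins, 46 had H4R3me2a, 42 H4R3me2s and 34 both, although 79 of 79 had H3K4me3 in both lists. Rpl6 and Rpl10 were separate to H4R3me2s, with 2.46, 3.50 and 3.88 fold and with 3.47, 3.42 and 3.80 fold in its 3 lists, and Rpl30, Rps19 and Rps3 were among 7 separate to H4R3me2a. Of 67 replication-dependent histone genes 49 had each mark and 39 had both, but neighbouring histone genes share peaks, as Hist1h2ag, Hist1h2bj and Hist1h4i did. Among 20 ubiquitous reference genes 11 had each mark and 10 both. The shares with H4R3me2a were 91.7% for splicing, 58.2% for ribosomal and 73.1% for histone genes, against 49.0% of all protein-coding genes. Those with H4R3me2s were 95.8, 53.2 and 73.1%, against 34.2%. The reference genes, 11 of 20 for each mark, were closer to the general share for H4R3me2a than for H4R3me2s.

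Olfactory receptor genes, which serve the sense of smell, rarely carried either mark. Of 1135 olfactory receptor genes 27 had H4R3me2a (2.38%), 11 had H4R3me2s (0.969%) and 3 had both, and 999 had no peak in any list. In the Hox clusters, which carry little H3K27ac here (2 of 39 genes), 21 genes had H4R3me2a, 11 had H4R3me2s and 7 had both. H4R3me2a was thus at 53.8% and H4R3me2s at 28.2% of Hox genes. Zfp zinc finger genes, 394 in number, had H4R3me2a at 57.9% and H4R3me2s at 37.3%, against the 49.0 and 34.2% of all protein-coding genes. Markers of other testis cells were counted as well. Of 14 Sertoli cell genes 6 had H4R3me2a (42.9%) and 3 had H4R3me2s (21.4%), against 49.0 and 34.2% of all protein-coding genes, and 12 had H3K4me3 in both lists. These differences rest on few genes and were not tested. Gata4, Wt1, Cldn11 and Fshr were among those with H4R3me2a and Inha was separate to H4R3me2s. Of 9 Leydig, 7 peritubular myoid, 8 macrophage and 7 endothelial genes, 4, 4, 2 and 4 had H4R3me2a and 2, 3, 0 and 1 had H4R3me2s. With so few genes in each list these counts are not read against the 49.0 and 34.2% of all protein-coding genes. A peak at a marker promoter does not measure how many such cells were present, and their part in the lists was not tested.

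Against RNA of WT testis at P7, the only age with RNA, both marks were more frequent at genes with higher levels. In the 3 bulk libraries the median was 29.1, 29.5 and 26.9 TPM for genes with both marks, 3.69, 3.45 and 3.35 for genes separate to H4R3me2a, 11.5, 11.6 and 11.8 for genes separate to H4R3me2s, and 0 for genes with neither. In the 2 Smart-seq2 libraries of P7 spermatogonia, labelled WT although the methods of the sort name heterozygous Cre carriers, the order was the same, with 24.5 and 22.7, 0.455 and 0.04, and 3.06 and 1.81 TPM. Of genes below 1 TPM 19.3% had H4R3me2a and 8.08% had H4R3me2s, and of genes at 50 TPM or more 73.3% and 60.01%. Genes separate to H4R3me2a made up 7.75% of genes below 1 TPM and 6.18% of those at 50 TPM or more, and genes separate to H4R3me2s 0.965 and 1.43%. These levels come from younger mice and are a description, with no test.

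The 5 WT lists of P7, 3 of H4R3me2a and 2 of H4R3me2s, took no part in defining the classes. Of the promoters in 6 of 6 lists at P14, the P7 lists of H4R3me2a held 48.3, 51.5 and 50.3% and those of H4R3me2s 76.2 and 74.7%, against 19.0, 20.3 and 20.2% and 33.0 and 33.7% of all protein-coding genes. Of the promoters separate to H4R3me2a at P14 the P7 H4R3me2a lists held 17.2, 19.1 and 19.0% and the P7 H4R3me2s lists 25.8 and 27.4%. Of those separate to H4R3me2s at P14 the figures were 12.5, 13.8 and 13.8%, and 28.4 and 32.2%. Per list, the first class minus the second gave 4.79, 5.31 and 5.13 points in the P7 H4R3me2a lists and -2.59 and -4.79 points in the P7 H4R3me2s lists. The sign thus followed the mark in 5 of 5 lists, with a difference of 8.77 points (exact permutation p = 0.1, the smallest that 3 against 2 lists can give). For regions the sign did not follow the mark in each list. Regions separate to H4R3me2a were in the P7 H4R3me2a lists in 10.3, 11.1 and 11.9% of cases and those separate to H4R3me2s in 10.8, 9.76 and 11.1%, and in the P7 H4R3me2s lists in 7.43 and 9.93% against 10.8 and 15.9%. Of all regions, 6.32, 6.60 and 6.90% were in the P7 H4R3me2a lists and 6.18 and 7.87% in the P7 H4R3me2s lists. Both separate classes of regions were above these shares in each P7 list. For the strict regions, 19.8, 19.8 and 21.6% against 24.2, 23.2 and 22.2% in the P7 H4R3me2a lists, the class of H4R3me2s was higher in each list. For the separate promoter genes the difference of 8.77 points became 3.19 points at equal list length in both ages (exact permutation p = 0.2). Each separate class of promoter genes was found in each P7 list less often than protein-coding genes in general. For the strict classes of promoter genes the difference was 17.5 points (exact permutation p = 0.2). Promoters strictly separate to H4R3me2a had a peak in the P7 H4R3me2a lists in 20.7, 26.2 and 27.4% of cases, and those strictly separate to H4R3me2s in the P7 H4R3me2s lists in 37.2 and 41.9%, each above the share of all genes.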

How the data were processed

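CUT&Tag peak lists of WT mouse testis were compared, 3 of H4R3me2a and 3 of H4R3me2s at P14, grouped by the sample labels. For each library separately the authors ran MACS2 2.1.0, and the peak names carry a p threshold of 0.005. Which aligner and control library were used for CUT&Tag is not given in the sources used here. Every deposited entry holds a fold enrichment, a ratio to the background of its own library, together with the −log10 of p and of q. The deposited TPM of P7 RNA, scaled within each library by RSEM, served only to rank genes.

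From these files, summits on the main chromosomes were placed on GENCODE vM21 (GRCm38), with a promoter reaching 3000 bp from any TSS. Overlap means at least 1 shared bp. A mark counted as present at a region or promoter in at least 2 lists. Differences between marks were tested over lists by two-sided exact permutation. Depth was available only as the background recovered from fold and p. Named genes are, by median percentile of p within the lists, the 8 best of each strict class and up to 3 per class of each gene list, with all arginine methyltransferases and partners and the transcription factors the study displays. Regions were named likewise, 3 per strict class. Members and gene lists were chosen with earlier results of these data known. Alternatives were equal list length, q of at most 0.01, all lists of a mark, protein-coding genes or their TSS only, peak midpoints, a longer minimum overlap, set by the smaller peak, peak windows of fixed width, promoters of 1000 bp, a replicate block and each list left out in turn, and a fold of at least 4 was added after seeing the data. The overlap, merging, permutation and background steps were tested on simulated data or cases with known answers, and the placing of summits was not. The tools were samtools 1.23.1, pysam 0.24.0, scipy 1.17.1, pandas 2.3.3, numpy 2.4.6 and matplotlib 3.10.9 under Python 3.11.15. Signal tracks and Prmt1-dKO samples were not used here.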

Additional observations from a re-analysis of the deposited data

Results flagged for a closer look

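The mark with more marked promoters changed with age. At P14 the share of protein-coding genes with a promoter summit was higher for H4R3me2a than for H4R3me2s by 12.5 points, and at P7 the difference was -13.5 points, with every list on the side of its group at each age. This reversal between ages was not tested. Backgrounds at P7 were 1.79, 1.88 and 2.26 fragments per window for H4R3me2a and 0.408 and 0.593 for H4R3me2s, so the P7 lists with more marked promoters had the lower background. Those lists were also the longer ones, with 19838 and 35939 peaks on the main chromosomes against 16802, 18538 and 17190 for H4R3me2a, whereas at P14 the H4R3me2a lists were longer. The order of the shares thus went with list length at both ages, though not in proportion to it at P7. There H4R3me2a replicate 2, with 18538 peaks, had a summit at 20.3% of promoters. H4R3me2s replicates 1 and 2, with 19838 and 35939 peaks, had one at 33.0 and 33.7%. The part of list length was not tested.

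Peaks outside the main chromosomes, on unplaced scaffolds or the mitochondrial genome, entered no comparison. They numbered 144, 141 and 138 in the H4R3me2a lists and 192, 159 and 189 in the H4R3me2s lists, which were the shorter lists.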

How the results depend on the processing

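Differences are H4R3me2a minus H4R3me2s in percentage points. With equal list length the sign turned for the promoter share (2.59), summits within 1000 bp of a TSS (2.86), GC content (1.16), and overlap with H3K4me3 (4.22) and H3K27ac (4.76), and with a fold of at least 4 for promoters (2.40) and exons (-0.0485). The cause was not tested. Regions with both marks, separate to H4R3me2a and separate to H4R3me2s numbered 1420, 2311 and 108 at a q of at most 0.01, 2552, 1579 and 99 with all lists of a mark required, and 1551, 840 and 441 at a fold of at least 4, and equal length gave 2893 separate to H4R3me2a. Over all annotated genes the classes became 1548 with both and 79 separate to H4R3me2s at that q, 3501, 823 and 73 with all lists required, and 1884 with both and 740 separate to H4R3me2a at that fold, while equal length gave 1336 and 994 separate genes and protein-coding genes alone 1687 and 289. With 1 list left out, regions ranged from 3737 to 5317 (both), 3824 to 11752 (H4R3me2a) and 346 to 1872 (H4R3me2s), genes from 5018 to 7151, 1452 to 5005 and 186 to 977, the intergenic difference from -2.00 to 0.977, the promoter difference from -6.78 to -2.43, summits within 1000 bp of a TSS from -6.97 to -3.20, GC from -0.708 to -0.0236, X from -0.222 to -0.0156, overlap with H3K4me3 from -8.40 to -4.11 and with H3K27ac from -6.74 to -3.03, and overlap within minus between marks from -0.135 to 4.03. In the other 53 comparisons with an alternative, leaving out lists aside, direction was kept, or a count stayed within 1.5 times, but sizes and members could change, as for the 2146 genes separate to H4R3me2a at a q of at most 0.01, of which 264 were in that class before, and for the intron difference (4.52, at equal length 0.482) and overlap with H3K4me3 (-6.01, at a q of at most 0.01 -16.3).

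The deviations of same-numbered lists of the marks had correlations of 0.0136, 0.0071 and 0.0024, and those of differently numbered lists ran from -0.0127 to 0.00585. Values this small cannot tell whether equal numbers pair samples, so the pairing is not known. With a replicate block the exact sign-flip p was 0.25 for the promoter (-4.44), intron (4.52) and exon (0.397) differences and 0.75 for the intergenic one (-0.683), where 0.25 is the smallest that 3 pairs allow. The depth of the H4R3me2s lists limits what they can lack: a region without a peak there may have too few fragments.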
